A study of Homo sapiens with 6 samples.

Results

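The genes described here are 10 genes of arginine methylation, out of 60612 genes in the table. They are the methyltransferase genes PRMT6, PRMT1, PRMT2, PRMT3, CARM1, PRMT7 and PRMT9, and the reader or modifier genes JMJD6, TDRD3 and SMN1, chosen by name. The choice was made with earlier results of these data known. All 10 passed edgeR's filter on low counts, which left 18106 genes. RNA was sequenced from U87, an established human glioblastoma cell line. The NC group (3 libraries) carried a scramble shRNA, and the shPRMT6 group (3 libraries) carried an shRNA against PRMT6, a short hairpin RNA that directs the cell to degrade the matching transcript. Both groups received their hairpin by lentivirus and, by the study's methods, were screened with puromycin to give stable lines. None of these 6 libraries came from cells without a hairpin or with PRMT6 restored, and each group is 1 condition in 1 line. The methods call the 3 libraries of a group independent replicates.

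Protein arginine methyltransferases move methyl groups from S-adenosylmethionine onto arginine side chains of histones and RNA-binding proteins. Type I enzymes (PRMT1, PRMT2, PRMT3, CARM1, PRMT6 and PRMT8) leave both methyl groups on the same nitrogen, which is called asymmetric dimethylarginine. Type II enzymes (PRMT5 and PRMT9) place them on different nitrogens, and PRMT7, the type III enzyme, adds a single methyl group. Tudor domain proteins such as TDRD3 and the SMN protein bind methylated arginines, and JMJD6 is an oxygenase that hydroxylates lysines and has also been described as an arginine demethylase, which is debated.

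The study lists 3 hairpins under the name of PRMT6. Its figure captions name #2 and #3 for the growth of U87 cells and #2 for a PCR assay of U87 RNA. Neither the labels nor the methods say which of the 3 hairpins was sequenced. The 21-base target of each is shown because the targets decide which genes of this family a hairpin matches; each is written 5′ to 3′ as DNA, and capitals mark the 7 bases that pair with bases 2 to 8 of the hairpin's antisense strand.
shPRMT6 #1: gcccagtttgagaTGCCTTAt
shPRMT6 #2: caccggcattctgAGCATCTt
shPRMT6 #3: cacggacgtttcaGGAGAGAt
PRMT1 site nearest to #2: caccggcatCctCTgcatGtt

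Targets #2 and #3 matched PRMT6 without a mismatch, on the plus strand of GRCh38 with GENCODE 29 annotation. Target #2 lay at chr1:107056991-107057011, in the coding sequence of 2 of 3 annotated PRMT6 transcripts. Target #3 lay at chr1:107057717-107057737, within each of the 3 transcripts and coding in 2. Target #1 did not match PRMT6 (at least 7 mismatches of 21 bases) and matched PRMT5 without a mismatch, on the minus strand at chr14:22922815-22922835, in 9 of 28 PRMT5 transcripts. Among the other 9 genes, PRMT1 came nearest to target #2, with 4 mismatches in coding exon 3 at chr19:49682011-49682031 on the plus strand. In the PRMT1 site printed above, capitals mark the mismatches, T10C, G13C, A14T and C19G, counted from 1 at the target's 5′ end with the target's base first. The other 8 genes had 6 to 9 mismatches to target #2, and all 9 had 7 or 8 to target #3.

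The total counts were 56388161 to 75887696 in NC and 61805330 to 67630740 in shPRMT6, and the TMM scaling factors lay between 0.992 and 1.01. Counts are given as CPM, counts scaled to library size with these factors. Glial and mesenchymal markers were high for VIM (7090 to 8427 CPM) and CD44 (455 to 651 CPM), while S100B was listed at 0 in every library, GFAP had 11 to 60 counts and SOX2 0 to 26 counts. None of the 6 such markers tested passed an adjusted p of 0.05, nor did any of the 4 tested markers of other cells, whose 5 genes summed to 4.42 to 6.30 CPM in NC and 6.54 to 8.65 CPM in shPRMT6. The endothelial marker PECAM1 was higher in every shPRMT6 library (log2 fold change 0.70, adjusted p = 0.0544 in edgeR), and PTPRC was at 0 counts in 4 libraries and at 4 in the others. In bulk RNA, fewer cells with a transcript and less of it in each cell cannot be told apart.

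PRMT6 RNA fell in shPRMT6 cells, PRMT1 and PRMT3 RNA fell with it, and none of the 10 genes rose. PRMT6 kept 54.7% of its NC level, PRMT1 71.8% and PRMT3 71.4%. Thus 3 of 10 genes were lower at an adjusted p of 0.05 (quasi-likelihood test of edgeR, adjusted by Benjamini-Hochberg over all genes). Of all genes tested 18.6% passed this threshold, 9.06% lower and 9.51% higher. PRMT6, the gene the hairpin was aimed at, is included in the 3 genes, in the median and in the genes without overlap below. Without NC replicate 1, shPRMT6 replicate 1 or shPRMT6 replicate 2 the count was 1 of 10. The 10 genes had a median log2 fold change of -0.19, against -0.01 over all genes tested. The threshold given in the methods, a log2 fold change above 1 in size with p under 0.05, was passed by 5.92% of all genes and by 0 of the 10. CPM did not overlap between the groups for 5 of 10 genes, all lower in shPRMT6 (PRMT6, PRMT1, PRMT3, CARM1 and PRMT7), where 19.9% of all genes tested were lower without overlap and 20.3% were higher without overlap. A group of 3 against 3 libraries can give no p below 0.1 by the exact permutation test (two-sided), and each of these 5 genes reached that value.

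**Figure D1:**
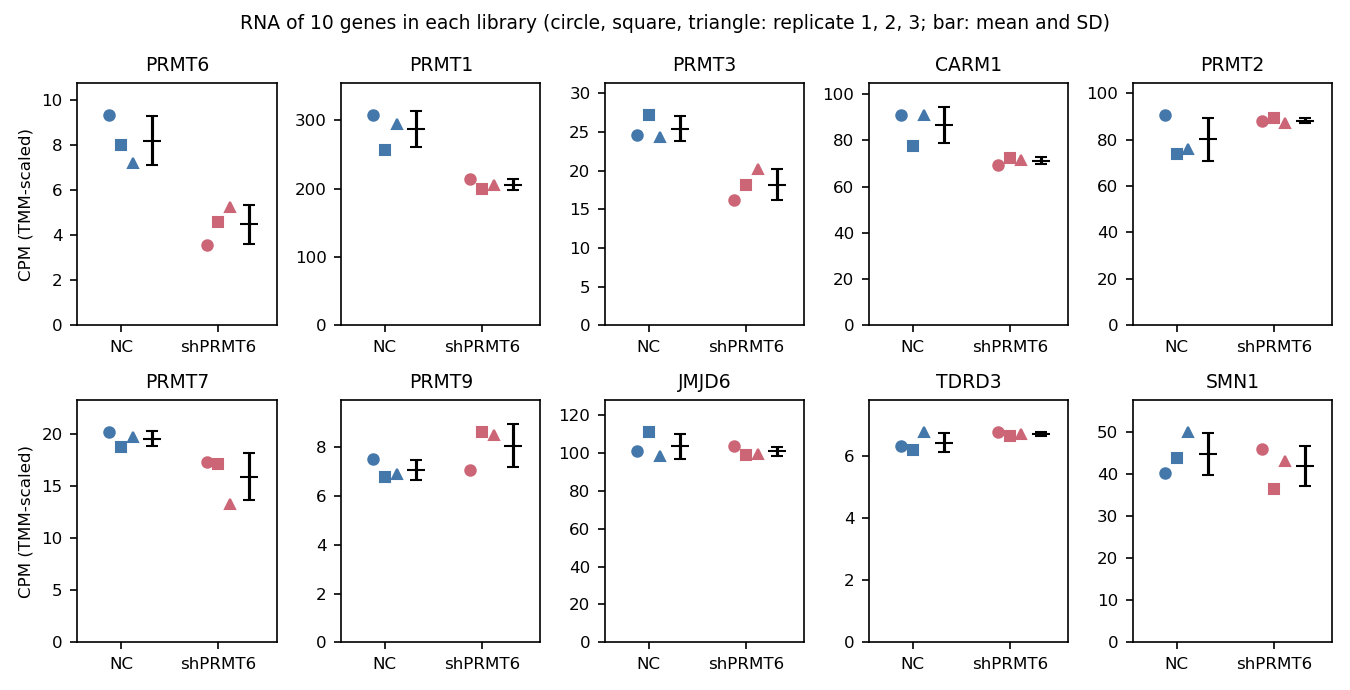
CPM after TMM scaling (y axis, linear from 0, a separate scale for each gene) of the 10 genes in the 3 NC and 3 shPRMT6 libraries; each symbol is a library and the bar is the mean with its SD. PRMT6, PRMT1, PRMT3, CARM1 and PRMT7 were lower in every shPRMT6 library than in every NC library, and the groups of the other 5 genes overlapped.

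PRMT6 (ENSG00000198890, chr1:107056679-107067636, plus strand) encodes the enzyme that asymmetrically dimethylates an arginine near the start of histone H3. Its counts were 522, 606 and 449 in NC and 227, 282 and 355 in shPRMT6 replicates 1 to 3, which made it the member with the fewest reads in shPRMT6 replicate 1. As CPM, these were 9.33, 7.97 and 7.19 in NC and 3.57, 4.58 and 5.24 in shPRMT6. The highest shPRMT6 library was below the lowest NC library, but the gap between them (7.19 against 5.24 CPM) was narrower than the spread of the NC libraries. The log2 fold change was -0.87 (SE 0.187, 95% interval -1.32 to -0.42, adjusted p = 0.0225, edgeR). Without NC replicate 1, shPRMT6 replicate 1 or shPRMT6 replicate 2, PRMT6 had a log2 fold change of -0.77, -0.73 and -0.89 and was not past the threshold (adjusted p = 0.0613, 0.0588 and 0.0713, edgeR).

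PRMT1 (ENSG00000126457, chr19:49675786-49689029, plus strand) encodes the enzyme that makes most asymmetric dimethylarginine in mammalian cells. PRMT1 RNA was at 309, 257 and 295 CPM in NC and at 214, 199 and 205 CPM in shPRMT6. The shPRMT6 libraries lay close together and below every NC library. The log2 fold change was -0.48 (SE 0.0798, 95% interval -0.67 to -0.29, adjusted p = 0.00961, edgeR), the lowest adjusted p of the 10 genes. PRMT1 passed the threshold of 0.05 under each of 16 other settings, with log2 fold changes from -0.55 to -0.43. Exons of PRMT1 share 7.63% of their bases with ADM5 on the same strand and 3.57% with AC011495.3 on the opposite strand, so a small part of these counts could belong to either gene. PRMT1 was 1 of 11 tested genes with 1 to 4 mismatches to target #2. Of these 11 genes, PRMT1 included, 2 were called lower and 2 higher, against 9.06% lower and 9.51% higher over all genes. Their median log2 fold change was -0.263, against -0.0128 for genes with over 4 mismatches. Of 6 tested genes with 1 to 4 mismatches to target #3, 2 were called lower and 0 higher, with a median of -0.396. Of the PRMT1 mismatches to target #2, A14T and C19G lie among the target bases printed above in capitals. T10C and G13C lie outside those capitals. Whether the near match of PRMT1 to target #2 had a part in the lower PRMT1 RNA was not tested, and the sequenced hairpin is not named.

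PRMT3 (ENSG00000185238, chr11:20387530-20509294, plus strand) encodes a cytosolic enzyme that methylates a protein of the small ribosomal subunit. Its RNA was at 24.7, 27.3 and 24.4 CPM in NC and at 16.2, 18.2 and 20.2 CPM in shPRMT6. No library of either group fell among those of the other. The log2 fold change was -0.49 (SE 0.110, 95% interval -0.75 to -0.22, adjusted p = 0.0269, edgeR). Of the 6 fits with a library left out 5 lost the call, and PRMT3 passed only without shPRMT6 replicate 3 (adjusted p from 0.0391 to 0.0884 over the 6 fits, edgeR).

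CARM1 and PRMT7 were lower in each shPRMT6 library, by less, and did not pass the threshold. CARM1 (ENSG00000142453, chr19:10871513-10923070, plus strand) encodes a coactivator of nuclear receptors that methylates histone H3. CARM1 RNA was at 91.0, 77.7 and 91.1 CPM in NC and at 69.4, 72.5 and 71.6 CPM in shPRMT6, with a log2 fold change of -0.28 (SE 0.0801, 95% interval -0.47 to -0.09, adjusted p = 0.0540, edgeR). NC replicate 2 stood below the other NC libraries, and without it the log2 fold change of CARM1 was -0.36 and passed the threshold (adjusted p = 0.0141, edgeR). DESeq2 also called CARM1 (adjusted p = 0.00405). With any other single library left out CARM1 did not pass (adjusted p from 0.127 to 0.156, edgeR). Nor did it pass with the replicate number as a block (adjusted p = 0.114, edgeR). Of the CARM1 exon bases, 19.9% overlap YIPF2 on the opposite strand, and the use of strand in counting is not given in the sources used here. PRMT7 (ENSG00000132600, chr16:68310974-68358563, plus strand) was at 20.2, 18.8 and 19.7 CPM in NC and at 17.3, 17.1 and 13.3 CPM in shPRMT6, where replicate 3 stood apart. The PRMT7 log2 fold change was -0.30 (SE 0.124, 95% interval -0.60 to -0.00, adjusted p = 0.150, edgeR), and 2.53% of its exon bases overlap SMPD3 on the opposite strand.

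PRMT2 and PRMT9 did not pass the threshold and had fold changes above 0. PRMT2 (ENSG00000160310, chr21:46635167-46665124, plus strand) encodes a type I enzyme with an SH3 domain, a module that binds proline-rich stretches. PRMT2 RNA was at 90.8, 73.6 and 76.1 CPM in NC and at 88.2, 89.3 and 87.1 CPM in shPRMT6. The shPRMT6 libraries were nearly equal and lay above NC replicates 2 and 3 but below NC replicate 1. The log2 fold change was 0.14 (SE 0.0902, 95% interval -0.08 to 0.35, adjusted p = 0.346, edgeR, and exact permutation p = 0.4). Without NC replicate 1 it was 0.23 (adjusted p = 0.0560, edgeR). With any other single library left out it was 0.08 to 0.15 (adjusted p from 0.453 to 0.605, edgeR). PRMT9 (ENSG00000164169, chr4:147637785-147684230, minus strand) encodes a type II enzyme that methylates a splicing factor. PRMT9 RNA was at 7.51, 6.75 and 6.90 CPM in NC and at 7.04, 8.61 and 8.47 CPM in shPRMT6, so that shPRMT6 replicate 1 lay among the NC libraries. Its log2 fold change was 0.19 (SE 0.129, 95% interval -0.12 to 0.50, adjusted p = 0.366, edgeR; exact permutation p = 0.2).

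JMJD6, TDRD3 and SMN1 did not pass the threshold, and each overlapped between the groups. JMJD6 (ENSG00000070495, chr17:76712832-76726799, minus strand) was at 101, 111 and 98.1 CPM in NC and at 104, 99.0 and 99.5 CPM in shPRMT6. NC replicate 2 was the highest library and the others overlapped. The JMJD6 log2 fold change was -0.04 (SE 0.0674, adjusted p = 0.751, edgeR), and its 95% interval of -0.20 to 0.12 was the narrowest of the 10 genes. JMJD6 was also the only one of the 10 genes whose longest annotated 3′ UTR held a 7-base match to a hairpin seed: GGAGAGA of #3 at chr17:76714250-76714256 and TGCCTTA of #1 at chr17:76715736-76715742, both read on the transcript strand. These letters occur in the 3′ UTRs of 17.9% and 12.9% of 18810 genes, and AGCATCT of #2, which is in 14.0%, was in 0 of the 10. The JMJD6 3′ UTR was also the longest of the 10 at 4107 bases, where the others had 205 to 1451.

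TDRD3 (ENSG00000083544, chr13:60396457-60573878, plus strand), a Tudor protein that binds asymmetric dimethylarginine and partners the topoisomerase TOP3B, was at 6.31, 6.21 and 6.78 CPM in NC and at 6.77, 6.63 and 6.72 CPM in shPRMT6. All 6 libraries lay within a narrow band, and NC replicate 3 was the highest. The TDRD3 log2 fold change was 0.06 (SE 0.110, 95% interval -0.20 to 0.32, adjusted p = 0.756, edgeR).

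SMN1 (ENSG00000172062, chr5:70925030-70953942, plus strand) encodes the survival motor neuron protein, which assembles Sm proteins onto spliceosomal RNAs. SMN1 was at 40.2, 43.9 and 50.1 CPM in NC and at 46.0, 36.6 and 43.2 CPM in shPRMT6, with the groups interleaved. The log2 fold change was -0.09 (SE 0.121, 95% interval -0.38 to 0.20, adjusted p = 0.652, edgeR). Its value is uncertain, because 81.9% of its 75-base stretches are also in SMN2, a near-identical copy at chr5:70049612-70078522. SMN1 held 52.4%, 56.4% and 72.0% of the counts of both copies in NC and 58.0%, 46.7% and 54.4% in shPRMT6, so NC replicate 3 stood apart in how reads were split. Summed over both copies, the RNA was at 76.7, 78.0 and 69.5 CPM in NC and at 79.3, 78.3 and 79.5 CPM in shPRMT6. The summed log2 fold change was 0.08 (adjusted p = 0.455, edgeR), of the opposite sign to SMN1 alone and, like it, not past the threshold. The sum did not overlap between the groups, since the lowest shPRMT6 library (78.3 CPM) lay just above the highest NC library (78.0 CPM), with an exact permutation p of 0.1.

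**Figure D2:**
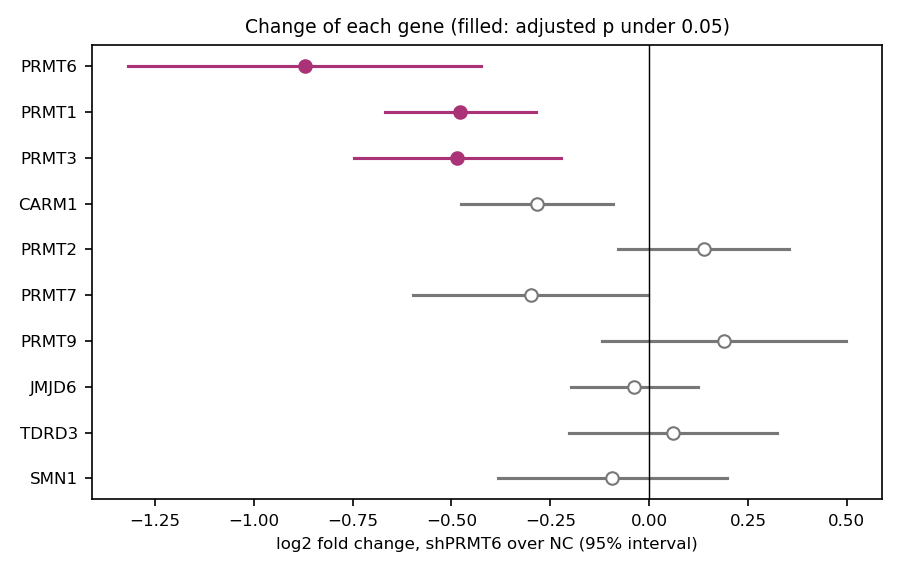
Log2 fold change of each gene, shPRMT6 over NC (x axis), with its 95% interval from edgeR's quasi-likelihood fit of 3 libraries against 3; filled symbols passed an adjusted p of 0.05. The filled symbols are PRMT6 at -0.87, PRMT1 at -0.48 and PRMT3 at -0.49, and the intervals of PRMT2, PRMT9, JMJD6, TDRD3 and SMN1 include 0.

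Levels of different genes were compared as FPKM, the deposited values scaled to length and to mapped fragments. PRMT1 was the most abundant of the 10 genes in NC (50.4 ± 4.57 FPKM, SD, n = 3), followed by CARM1 (16.5 ± 1.49), JMJD6 (14.6 ± 0.937), SMN1 (12.1 ± 1.48), PRMT2 (8.86 ± 0.953), PRMT3 (3.90 ± 0.244), PRMT7 (1.71 ± 0.0587), PRMT6 (1.58 ± 0.194), PRMT9 (1.50 ± 0.0735) and TDRD3 (0.687 ± 0.0378). CARM1 and JMJD6 overlapped in NC, as did PRMT7 with PRMT6 and PRMT6 with PRMT9, while the other neighbours in this order did not. In shPRMT6 cells the order was PRMT1 (36.4 ± 1.31 FPKM, SD, n = 3), JMJD6 (14.3 ± 0.349), CARM1 (13.6 ± 0.298), SMN1 (11.4 ± 1.34), PRMT2 (9.81 ± 0.107), PRMT3 (2.80 ± 0.310), PRMT9 (1.72 ± 0.185), PRMT7 (1.40 ± 0.197), PRMT6 (0.869 ± 0.166) and TDRD3 (0.721 ± 0.00834). PRMT9 and PRMT7 overlapped there, and so did PRMT6 and TDRD3. PRMT6 was thus among the least abundant enzymes of its family before the knockdown, and it moved from the eighth to the ninth place.

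The length that the FPKM values imply was 1.12 to 1.20 times the union of all annotated exons of each gene, so a gene with many annotated exons is scaled down more than its main transcript would be. PRMT1 has 4796 exon bases but a principal transcript of 1393 bases. Per kilobase of the principal transcript, added after the data were seen, PRMT1 still led in NC at 206 CPM per kilobase, SMN1 (29.1), PRMT2 (27.8), CARM1 (26.0) and JMJD6 (19.5) followed, and PRMT6 was at 3.12. PRMT6 then fell to 1.71 CPM per kilobase in shPRMT6, the lowest of the 10 genes, below PRMT9 (2.28) and TDRD3 (2.60). The order among SMN1, PRMT2, CARM1 and JMJD6 therefore depended on the length used, and that of PRMT1 did not.

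**Figure D3:**
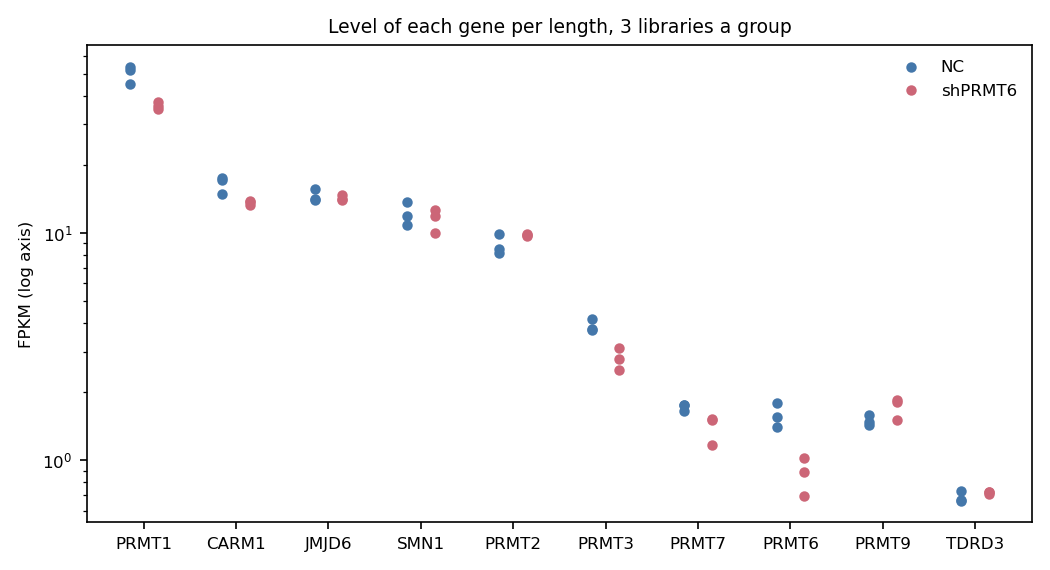
FPKM (log axis) of the 10 genes in order of their NC mean; each point is a library, 3 in a group. PRMT1 lies above every other gene in both groups, and PRMT6 overlaps PRMT7 and PRMT9 in NC and TDRD3 in shPRMT6.

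The RNA of the 7 methyltransferases together, as summed FPKM, was lower in shPRMT6, and most of that difference was PRMT1. The sum was at 89.6, 76.8 and 86.8 FPKM in NC and at 67.0, 65.9 and 66.9 FPKM in shPRMT6, or 78.9% of NC. Without PRMT6 it was 82.8 ± 6.61 FPKM in NC and 65.7 ± 0.675 FPKM in shPRMT6 (SD, n = 3), or 79.3%. Each shPRMT6 library was below each NC library in both sums (exact permutation p = 0.1, the smallest possible). For the 5 enzymes other than PRMT1 and PRMT6 the sum was 32.5 ± 2.06 FPKM in NC and 29.3 ± 0.665 FPKM in shPRMT6 (SD, n = 3), or 90.4%.

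PRMT6 made up 2.00%, 2.01% and 1.62% of this sum in NC and 1.04%, 1.35% and 1.53% in shPRMT6, again without overlap (exact permutation p = 0.1). PRMT1 went from 59.6% ± 0.825 to 54.6% ± 1.53 (SD, n = 3), lower in every shPRMT6 library. PRMT2 went from 10.5% ± 0.654 to 14.7% ± 0.285 (SD, n = 3), higher in every shPRMT6 library (exact permutation p = 0.1), although PRMT2 RNA itself did not pass the test. A share also moves with the sum it is taken from, which was 78.9% of NC. PRMT2 itself was at 8.86 FPKM in NC and 9.81 FPKM in shPRMT6. The CARM1 share of 19.5% ± 0.576 in NC and 20.5% ± 0.603 in shPRMT6 overlapped between groups (SD, n = 3; exact permutation p = 0.2).

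PRMT5, the main enzyme of symmetric dimethylation, was at 82.6, 76.7 and 72.1 CPM in NC and at 80.0, 66.0 and 64.8 CPM in shPRMT6, with overlapping groups. Its log2 fold change was -0.13 (SE 0.103, 95% interval -0.38 to 0.11, adjusted p = 0.424, edgeR), so no change of the gene that target #1 matches was detected. Of its exon bases 27.1% overlap the antisense gene PRMT5-AS1. PRMT8, a type I enzyme of neurons, had 4 counts in NC replicate 2 and 0 in the others, which allows up to 3 counts, or 0.0444 to 0.0532 CPM, in each of those libraries by counting error alone.

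Across the 6 libraries, log2 CPM of PRMT3 followed PRMT6 most closely among the 10 genes (Pearson r 0.954), then PRMT1 (0.858), CARM1 (0.84) and PRMT7 (0.556). TDRD3 (-0.706), PRMT2 (-0.411) and PRMT9 (-0.335) ran the other way. Over the 10045 genes at or above 3 in average log2 CPM, the 5 most like PRMT6 were SPA17 (r 0.998), SCARB1 (0.995), CNOT10 (0.995), CHAF1B (0.994) and MARCHF9 (0.992). CNOT10, a subunit of the CCR4-NOT deadenylase, fell with a log2 fold change of -0.46 (adjusted p = 0.0182, edgeR), and MARCHF9, a membrane ubiquitin ligase, with -0.52 (adjusted p = 0.0391, edgeR). The other three did not pass the threshold, with log2 fold changes of -0.23 for SPA17, -0.16 for SCARB1 and -0.23 for CHAF1B. These values describe 6 libraries that share the groups and fall into 2 clusters, so any gene that differs between the groups is alike to PRMT6 in part for that reason. The 5 genes were picked as the highest of 10045 in these same libraries, so their adjusted p values are not separate evidence.

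Genes of the surrounding pathway were taken from lists chosen by function. The lists were chosen with earlier results of these data known, so setting their counts and medians beside all genes is no test. Among the enzymes that supply the methyl donor and clear its products, 6 of 7 were tested, 1 was lower and 1 was higher, where 18.6% of all genes tested passed the same threshold (9.06% lower, 9.51% higher). MAT2A, which makes S-adenosylmethionine, was at 156, 161 and 150 CPM in NC and at 127, 123 and 125 CPM in shPRMT6 (log2 fold change -0.31, SE 0.0544, adjusted p = 0.0107, edgeR). DDAH1, which breaks down free asymmetric dimethylarginine, was at 5.53, 5.87 and 5.45 CPM in NC and at 8.40, 8.74 and 9.82 CPM in shPRMT6 (log2 fold change 0.68, SE 0.118, adjusted p = 0.0109, edgeR). Neither gene overlapped between the groups, and they moved in opposite directions. Both were named because they passed the threshold, and 40.2% of all genes tested had no overlap, so this adds no separate evidence. The MAT2A call was lost without shPRMT6 replicate 2 (adjusted p = 0.0565, edgeR). With the replicate number as a block both calls were lost (adjusted p = 0.0502 for MAT2A and 0.0503 for DDAH1, edgeR).

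Of the 5 peptidylarginine deiminases, which turn arginines of proteins into citrulline, PADI3 alone had enough counts to be tested. It was at 1.50, 1.49 and 1.55 CPM in NC and at 3.71, 3.74 and 2.98 CPM in shPRMT6, with a log2 fold change of 1.20 (SE 0.174, adjusted p = 0.00605, edgeR). Of 10 other Tudor readers 6 were tested, and TDRD7 rose (log2 fold change 0.36, SE 0.0757, adjusted p = 0.0214, edgeR) while 0 fell, against 9.51% higher and 9.06% lower over all genes. The TDRD7 call was lost without NC replicate 1 or any 1 of the shPRMT6 replicates (adjusted p up to 0.0872, edgeR), which left 0 of these readers called. The 6 readers had a median log2 fold change of 0.26, against -0.01 over all genes. The 3 other arginine methyltransferases tested and the 6 partners of PRMT1 and PRMT5 held no gene past the threshold in either direction.

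Among 12 genes of the SMN complex and the Sm proteins it carries, 3 fell, 1 rose and 8 did not pass the test, where 9.06% of all genes were lower and 9.51% higher. Their median log2 fold change was -0.27, against -0.01 over all genes. The 4 calls became 1 without any 1 of the shPRMT6 replicates, 2 without NC replicate 2 or 3, and 1 with the replicate number as a block. SNRPB, which encodes the Sm proteins B and B′, was at 146, 116 and 138 CPM in NC and at 90.3, 84.5 and 79.5 CPM in shPRMT6 (log2 fold change -0.65, SE 0.101, adjusted p = 0.00751, edgeR). SNRPD3, another methylated Sm protein, fell by 0.30 on the log2 scale (SE 0.0551, adjusted p = 0.0127, edgeR). GEMIN5, the subunit that recognises small nuclear RNAs, fell by 0.41 (SE 0.0919, adjusted p = 0.0269, edgeR), and GEMIN8, a scaffold of the complex, rose with 0.52 (SE 0.118, adjusted p = 0.0276, edgeR). The GEMIN8 call was lost whichever library was left out, the GEMIN5 call in 5 of these 6 fits and the SNRPD3 call in 3, those without an shPRMT6 library.

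Of 12 RNA-binding proteins with arginine-rich RGG stretches, the classic substrates of PRMT1, 5 fell, 0 rose and 7 did not pass the test, where 9.06% of all genes were lower and 9.51% higher. Their median log2 fold change was -0.19, against -0.01 over all genes. The 5 calls became 2 without shPRMT6 replicate 1 or 2, 3 without NC replicate 1, NC replicate 3 or shPRMT6 replicate 3, and 2 with the replicate number as a block. FBL, the methyltransferase of ribosomal RNA, was at 392, 331 and 357 CPM in NC and at 264, 226 and 244 CPM in shPRMT6 (log2 fold change -0.56, SE 0.0875, adjusted p = 0.00780, edgeR). KHDRBS1, a regulator of splicing, fell by less in the same edgeR fit (-0.25, adjusted p = 0.0236), as did G3BP1 and HNRNPA1. KHDRBS1 lay at 113 to 118 CPM in NC and at 95.9 to 99.9 CPM in shPRMT6. The KHDRBS1 call was lost in 5 of the 6 fits without 1 library.

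Of 6 core genes of the histone H3 lysine methyltransferase complexes, whose binding to histone H3 is hindered by the mark of PRMT6, WDR5 fell (log2 fold change -0.28, SE 0.0663, adjusted p = 0.0330, edgeR) and 5 did not pass the test, against 9.06% lower over all genes. WDR5 lay at 66.9 to 75.1 CPM in NC and at 58.2 to 59.6 CPM in shPRMT6, and its call was lost in 5 of the 6 fits without 1 library.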

How the data were processed

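The authors deposited raw counts per gene and FPKM values for each library. Per the labels, reads were processed with HISAT2 and HTSeq 0.13.5 on GRCh38, from libraries of a NEBNext Ultra RNA kit; the use of strand is not given in the sources used here. Genes without counts are listed at 0.0001 FPKM. Small counts piled up at multiples of 4 (1240 to 1399 genes at 4 counts, 398 to 421 at 3 and 223 to 269 at 5 in a library), so counting error per count may be understated.

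Samples were grouped by the labels. Counts were fitted across all genes with edgeR 4.0.16 in R 4.3.3 (TMM, filter on low counts by group, quasi-likelihood test, Benjamini-Hochberg adjustment, no block); exact permutation tests used SciPy 1.17.1. Gene identifiers were matched to symbols for 42020 of 60612 genes, and positions, exons, 3′ UTRs and targets to GENCODE 29. Members and lists were chosen with earlier results of these data known. Named genes were the 10 members, SMN2, PRMT5 and PRMT8, up to 3 genes a direction in each list by smallest p past 0.05, the 5 genes most correlated with PRMT6, and genes overlapping members; other genes named (G3BP1, HNRNPA1 and the markers) were chosen otherwise. Some genes under this rule are not reported here.

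Alternatives were no scaling, upper quartile factors, DESeq2 1.42.0, filters of 10 counts in every library or 1 in any, a replicate block, limma 3.58.1 on log2(FPKM + 1) or log2(FPKM + 0.1) filtered at a mean FPKM of 1 or not filtered, a threshold of 0.01 on the adjusted p, and leaving out every library in turn. On simulated counts of 17896 genes with 200 changed, edgeR recovered 100% with 6.10% false calls and DESeq2 recovered 99.5% with 9.13%. limma on simulated FPKM recovered 100% of 159 among 11327 genes, with 10.2% false calls. Every simulated gene had the same dispersion, and the changed genes all had the same size of fold change and lay above a set mean count. These rates therefore need not hold for the real counts. Recovery of log2 fold changes as small as those of the members was not tested.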

Additional observations from a re-analysis of the deposited data

How the results depend on the processing

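The number of all genes called (3362) was 5782 with DESeq2, 1858 with a replicate block, 1320 at an adjusted p under 0.01, and 1755 to 3183 with 1 library left out. The number of the 10 genes called (3) was 1 with the replicate block, with unfiltered limma on log2(FPKM + 1) and at an adjusted p under 0.01, and 1 to 3 with 1 library left out. PRMT6 was not past the threshold with the replicate block (log2 fold change -0.88, adjusted p = 0.0803, edgeR), with that limma fit (-0.47 on that scale, which understates low genes, adjusted p = 0.0578) or at 0.01 (-0.87), and ranged from -1.0004 to -0.73 with 1 library left out. The summed methyltransferase RNA was 80.2% of NC as CPM in place of FPKM and 75.5% to 81.4% with 1 library left out. JMJD6 changed sign without NC replicate 2 (0.016, with a range of -0.074 to 0.016 over all fits with 1 library left out) and SMN1 with SMN2 counts added (0.081), neither past the threshold. Same-numbered libraries had correlations of -0.02, -0.04 and -0.04 between their deviations. These values show no shared deviation, but cannot tell whether samples of the same number were handled together. CARM1 passed the threshold in 5 of 16 other settings and PRMT3 lost its call in 7 of 16. With counts divided by 4, an alternative chosen after seeing the data, CARM1 had an adjusted p of 0.0469 and PRMT6 of 0.018 in edgeR. Among the list genes, GEMIN8 was not called in any of the 6 fits that left out 1 library, WDR5, GEMIN5 and KHDRBS1 in 5, TDRD7 in 4, SNRPD3 in 3 and MAT2A in 1. TDRD3 could not be tested where a mean FPKM of at least 1 was required. The causes of these shifts were not tested.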
